A study of Homo sapiens with 4 samples.

Results

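The 14-3-3 family was followed through 4 messenger RNA libraries of MDA-MB-231, a human breast cancer cell line that is triple-negative and mesenchymal in appearance. Its 7 genes are SFN, which encodes stratifin or 14-3-3 sigma, and YWHAB, YWHAE, YWHAG, YWHAH, YWHAQ and YWHAZ, which encode the beta, epsilon, gamma, eta, theta and zeta proteins. They were taken by name from the 20263 genes of the deposited count table, and all 7 passed the filter on low counts that 13816 genes passed. The family was proposed with its values in these libraries in view, so its levels are given as a description. Cells of 1 group received YW-LF, which the series title calls a ribociclib derivative, for 24 h, and cells of the other group received dimethyl sulfoxide (DMSO), a solvent. Ribociclib inhibits the cell cycle kinases CDK4 and CDK6. Both groups grew in DMEM with fetal bovine serum and antibiotics, and each had 2 libraries. The sources used here give no dose of YW-LF. The labels do not say that the libraries of a group came from separate cultures, so the spread between them, and every p-value, may be technical.

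The 14-3-3 proteins are dimers that bind other proteins at phosphorylated serines and threonines, and so hold their partners in the cytoplasm, cover a site, or change an activity. Most of the family is found in nearly all tissues, whereas 14-3-3 sigma is a protein of epithelial cells, most abundant in stratified epithelium. SFN is known as a target of p53 that acts at the G2/M checkpoint, where its product keeps the cyclin B and CDK1 complex out of the nucleus. The gene is often silenced by CpG methylation in breast carcinoma.

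The sequences before the start sites are shown because the members differ there in CpG content. The RefSeq promoter table (GRCh38.p14) held 6 of the 7 members, all but YWHAZ. Shown here are SFN, YWHAB and YWHAG, the members with the lowest, the next lowest and the highest log2 fold change of YW-LF over DMSO. Each runs 5′ to 3′ on the strand of its gene up to the base before the gene's start in GENCODE 29, and capitals mark CG dinucleotides.
SFN, chr1:26862899-26863137, plus strand: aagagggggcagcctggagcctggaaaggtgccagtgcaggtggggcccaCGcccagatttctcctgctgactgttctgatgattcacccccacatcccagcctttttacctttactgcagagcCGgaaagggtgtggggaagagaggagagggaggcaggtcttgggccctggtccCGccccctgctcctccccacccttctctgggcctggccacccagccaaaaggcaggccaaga
YWHAB, chr20:44885455-44885675, plus strand: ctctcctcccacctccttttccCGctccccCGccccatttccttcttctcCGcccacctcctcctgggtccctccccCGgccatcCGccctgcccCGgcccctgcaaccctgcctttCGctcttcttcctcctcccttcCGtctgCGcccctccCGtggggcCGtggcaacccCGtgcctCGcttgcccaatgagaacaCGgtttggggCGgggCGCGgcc
YWHAG, chr7:76359032-76359241, minus strand: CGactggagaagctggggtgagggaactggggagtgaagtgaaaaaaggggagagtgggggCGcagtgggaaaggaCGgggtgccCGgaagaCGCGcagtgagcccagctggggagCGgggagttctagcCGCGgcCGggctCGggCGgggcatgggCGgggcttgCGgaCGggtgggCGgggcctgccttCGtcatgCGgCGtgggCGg
The printed SFN stretch of 239 bases holds 3 CG dinucleotides, the YWHAB stretch of 221 bases holds 17, and the YWHAG stretch of 210 bases holds 20. Over the full 250 bases before the RefSeq start, SFN has 3 CG and the other 5 members have 21 (YWHAB), 23 (YWHAG), 28 (YWHAQ), 29 (YWHAE) and 34 (YWHAH). The median over 27305 promoters of that length is 11. SFN therefore lies below the median, with 23.6% of promoters holding fewer CG, and the other 5 lie above it, with 70.2% to 93.4% holding fewer.

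Short motifs were searched on both strands of the same 250 bases. GGGCGG, the core of a GC box bound by SP1-type factors, was in 6 of 6 members and in 42.3% of all promoters. CCAAT was in YWHAB and YWHAQ and in 33.0% of all, and TATAAA was in YWHAH and in 11.1% of all. TTTGAA, the cell cycle homology element, was in 0 of 6 and in 13.6% of all. A strict E2F site (TTTGGCGC, TTTCCCGC, TTTCGCGC or TTTGCCGC) was in YWHAB and in 2.8% of all. Some of its letters can overlap a GC box, but the match in the printed YWHAB stretch, TTTCCCGC, did not overlap a GGGCGG match. The p53 half-site was in 0 of 6 and in 5.5% of all. These are matches of letters in a short window, and the data hold no measurement of binding or methylation there. Sequence outside those 250 bases, upstream or downstream, was not searched for motifs or counted for CG.

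In the GENCODE 29 annotation of GRCh38, SFN (ENSG00000175793) is a single-exon gene on chromosome 1 (26863138 to 26864457, plus strand) with a transcript of 1320 bases, of which 747 are coding. The other members lie on different chromosomes, YWHAB on 20 (44885676 to 44908532), YWHAE on 17 (1344272 to 1400378), YWHAG on 7 (76326794 to 76359031), YWHAH on 22 (31944461 to 31957603), YWHAQ on 2 (9583972 to 9631014) and YWHAZ on 8 (100916525 to 100953388). Their coding sequences were 60.0% to 78.5% identical over the 21 pairs, and 0 pairs shared a run of 50 bases. Runs were taken from 1 transcript per member, the one with the longest coding sequence. A read of that length that matched 1 of these transcripts exactly therefore matched no other of them. Of that transcript, runs shared with other annotated genes, including pseudogenes, made up 11.2% in YWHAZ, 5.55% in YWHAE, 3.21% in YWHAH and 2.12% in YWHAQ. Those counts are the less certain ones. SFN, YWHAB and YWHAG shared 0. YWHAE, YWHAH and YWHAQ overlap other annotated genes, none of them in the count table, and the sources used here do not say whether the counting used strand.

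Library totals ran from 34774542 counts (DMSO replicate 1) to 40218240 (YW-LF replicate 1). Levels are counts scaled to a common library total (CPM) and corrected by trimmed mean of M-values (TMM), with 1 count worth 0.0199 to 0.0324 CPM. Mitochondrially encoded genes took 8.68% and 21.7% of DMSO counts and 3.14% and 6.58% of YW-LF counts, a share that moved with the groups. With those genes removed before scaling, the log2 fold change of SFN was -2.81, the value with them in. The TMM factors of the YW-LF libraries were 1.25 and 0.838, against 1.077 and 0.886 for DMSO. Of the 5 markers listed for the line, VIM (2122 to 4154 CPM), CD44, AXL and ZEB1 were well detected and SPARC was low (0.534 to 1.01 CPM). The 6 listed as absent or low in the line summed to 26.7 and 39.9 CPM under DMSO and 16.5 and 12.1 CPM under YW-LF. GATA3 (9.03 and 21.4 CPM), EPCAM (8.81 and 9.35 CPM) and FOXA1 (6.81 and 7.17 CPM) gave most of the DMSO sums. Under YW-LF GATA3 had 3.08 and 4.01 CPM, EPCAM 5.53 and 7.06 CPM, and FOXA1 5.25 and 0.647 CPM. CDH1, the epithelial cadherin, was at or below 0.259 CPM. Of 5 fibroblast markers COL1A2 and DCN were at 0 in all libraries (list sums 2.30 to 9.80 CPM), and of 3 endothelial markers CDH5 was at 0 (sums 0.291 to 1.36 CPM). Among 3 leukocyte markers CD3E was at 0 and CD68, a lysosomal protein gene that other cells also express, gave almost all of the sums of 149 to 333 CPM.

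SFN had the lowest YW-LF levels of the family. It stood at 128 and 216 CPM in DMSO replicates 1 and 2 and at 35.2 and 13.7 CPM under YW-LF replicates 1 and 2, from 4783, 7243, 1771 and 422 counts. The groups did not overlap, and the lower YW-LF library was far below the other. The mean was 172 ± 62.7 CPM (SD, n = 2) in DMSO and 24.4 ± 15.3 CPM (SD, n = 2) in YW-LF, a log2 fold change of -2.81 (SE 0.58), or 7.03-fold lower. Of the 13816 genes tested, 106 had a lower log2 fold change. The 4 ratios of a YW-LF to a DMSO library ran from -3.98 to -1.86 on the log2 scale, while the pair within DMSO differed by 0.76 and the pair within YW-LF by 1.36. In bulk RNA, fewer cells carrying the transcript and less transcript per cell cannot be told apart.

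YWHAB encodes 14-3-3 beta. Its levels were 395 and 369 CPM under DMSO and 116 and 207 CPM under YW-LF. The groups did not overlap, the DMSO pair was close together, and the means of 382 ± 18.5 and 162 ± 64.3 CPM (SD, n = 2 each) gave a log2 fold change of -1.24 (SE 0.45), or 2.36-fold lower. YWHAH, the eta gene, had 189 and 255 CPM under DMSO and 84.6 and 165 CPM under YW-LF. The upper YW-LF library lay close under the lower DMSO library, and the log2 fold change was -0.83 (SE 0.46). YWHAQ, the theta gene, also called tau, was almost level, with 327 and 327 CPM under DMSO and 260.3 and 284 CPM under YW-LF. Its log2 fold change of -0.27 (SE 0.39) was smaller than its SE, and scaled by library size alone its groups overlapped.

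YWHAZ encodes 14-3-3 zeta, a partner of BAD that is often gained or overexpressed in breast tumours. Its levels were 977 and 829 CPM under DMSO and 1203 and 1707 CPM under YW-LF. The YW-LF libraries were the 2 highest, with a log2 fold change of 0.69 (SE 0.51), or 1.61-fold higher. YWHAG, the gamma gene, had 349 and 383 CPM under DMSO and 442 and 889 CPM under YW-LF. Here too the YW-LF libraries were the higher ones, replicate 2 far more than replicate 1, and the log2 fold change was 0.86 (SE 0.51), or 1.82-fold higher. YWHAE, the epsilon gene, which tends to pair with other isoforms, had 716 and 812 CPM in DMSO, between the YW-LF values of 539.6 and 978 CPM. Its groups overlapped, with a log2 fold change of -0.01 (SE 0.51).

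**Figure D1:**
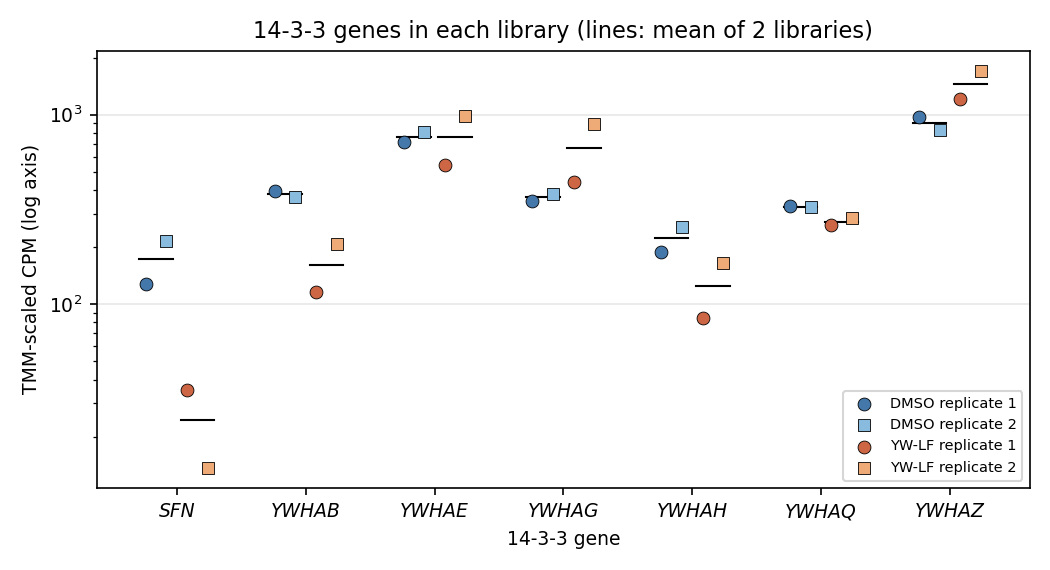
TMM-scaled CPM (log axis) of the 7 genes in each of the 4 libraries, with lines at the mean of the 2 libraries of a group. SFN lies at 128 and 216 CPM under DMSO and at 35.2 and 13.7 CPM under YW-LF, YWHAZ and YWHAG lie higher in YW-LF, and YWHAE overlaps.

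By this count both YW-LF libraries stood above both DMSO libraries for 2 members, where 28.0% of the 13816 genes tested did so, and below for 4 members, where 27.8% did so. The groups of 1 member overlapped. The quasi-likelihood test of edgeR, with Benjamini-Hochberg adjustment over all genes and a threshold of 0.05, called 0 members, and it called 0.00% of genes higher and 0.00% lower, the lowest adjusted p being 0.117. At an unadjusted p under 0.05 it had 2 members, SFN and YWHAB, both lower, among 1585 genes higher and 1245 lower. DESeq2 called SFN lower and no other member, where it called 5.95% of its 14125 genes higher and 4.41% lower, and limma-voom called 0 genes. Members were chosen on this contrast, so these calls describe them and do not test them.

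The 2 YW-LF libraries differed from each other. With TMM scaling SFN was the 1 member that was lower in YW-LF replicate 2 than in replicate 1, and the other 6 were higher there; by library size alone YWHAQ and YWHAZ were also lower in replicate 2. Without YW-LF replicate 1 the log2 fold changes were -3.66 for SFN, -0.88 for YWHAB, -0.43 for YWHAH, 0.35 for YWHAE and 1.28 for YWHAG. Without YW-LF replicate 2 they were -2.30, -1.73, -1.40, -0.51 and 0.26 for the same genes, and 0.40 for YWHAZ. YWHAE turned its sign between these fits, and the other 6 members kept theirs. With 1 YW-LF library left, which is taken to vary like the DMSO pair, edgeR called SFN, YWHAB, YWHAG and YWHAZ without replicate 1, and SFN, YWHAB and YWHAH without replicate 2. These fits call many genes, 21.0% higher and 20.7% lower without replicate 1, and 10.1% higher and 10.2% lower without replicate 2.

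**Figure D2:**
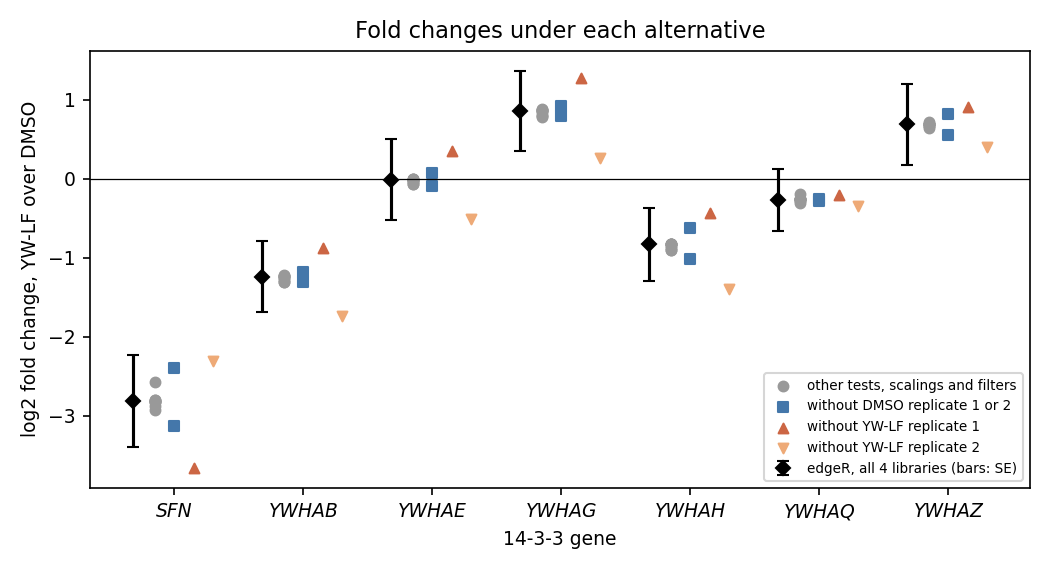
Log2 fold change of YW-LF over DMSO for each gene, with all 4 libraries (black diamonds, bars show the SE) and under 13 alternatives (grey circles for other tests, scalings and filters, coloured squares and triangles for fits that leave out 1 library). SFN runs from -3.66 to -2.30 and stays below 0, whereas YWHAE lies on both sides of 0.

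Ratios of reads between members of 1 library do not depend on scaling. They are not corrected for length and are compared only between libraries. SFN had 4.32 and 7.28 reads per 100 reads of the other 6 genes in DMSO and 1.33 and 0.323 in YW-LF. The same was done for the 2 pairs of highest coding identity, chosen after their values were seen. YWHAG and YWHAH, 78.5% identical, gave 184 and 150.3 YWHAG reads per 100 YWHAH reads in DMSO and 523 and 539.8 in YW-LF. YWHAZ and YWHAB, 73.9% identical, gave 248 and 225 YWHAZ reads per 100 YWHAB reads in DMSO and 1034 and 824 in YW-LF. In both pairs the 2 YW-LF libraries were closer to each other than to either DMSO library, although their scaled levels differed. The sum of the 7 genes was 3137 ± 77.7 CPM under DMSO and 3462 ± 1105 CPM under YW-LF (SD, n = 2 each), and its groups overlapped (3082 and 3192 against 2681 and 4244 CPM).

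Divided by the mean length of each gene's protein-coding transcripts, the reads give the make-up of the family's transcripts. SFN made up 5.00% and 8.08% in DMSO and 1.65% and 0.410% in YW-LF, or 6.54% ± 2.18 against 1.03% ± 0.874 (SD, n = 2 each). YWHAZ made up 31.8% and 25.7% in DMSO and 46.7% and 42.6% in YW-LF. The mean share of YWHAB was 10.5% ± 0.859 in DMSO and 4.18% ± 0.402 in YW-LF, and that of YWHAH was 7.96% ± 1.39 and 4.19% ± 0.663. YWHAG had 4.91% ± 0.162 in DMSO and 8.33% ± 1.51 in YW-LF. The shares of SFN, YWHAB and YWHAH were thus lower in both YW-LF libraries than in both DMSO libraries, and those of YWHAG and YWHAZ were higher. YWHAE shares overlapped (31.7% ± 1.75 and 29.6% ± 3.19), while YWHAQ shares (9.74% ± 0.329 and 8.05% ± 1.996) were just apart. Both of these depend on the length: YWHAQ shares overlapped with the longest transcript (13.7% and 12.4% against 14.4% and 9.88%), and YWHAE shares were apart with the coding length (22.6% and 24.8% against 19.5% and 22.4%). The size of a share depends on the length used: with the longest transcript SFN had 11.4% and 2.03%, and with the coding length 5.46% and 0.816%.

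**Figure D3:**
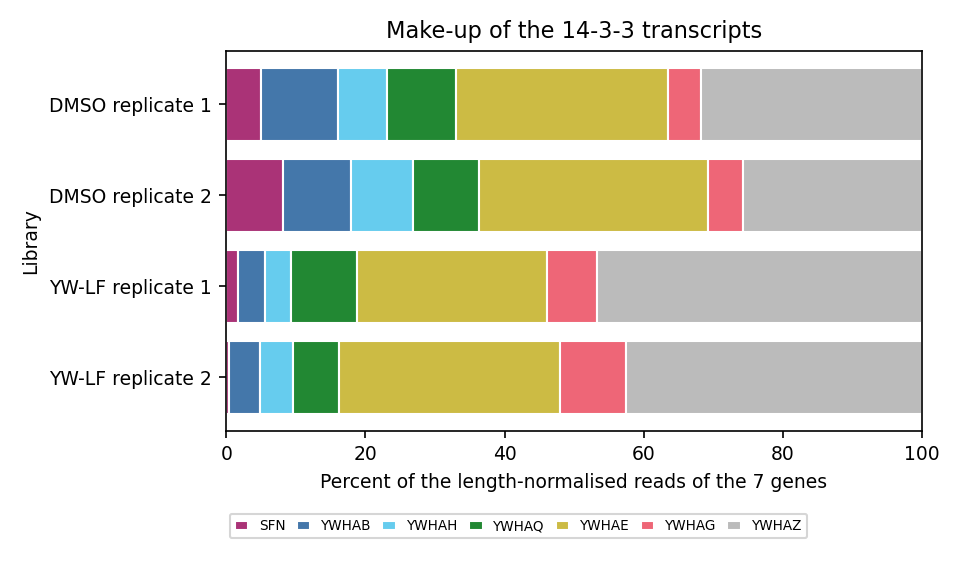
Percent of the length-normalised reads of the 7 genes taken by each gene, 1 bar per library. The SFN segment narrows from 5.00% and 8.08% in DMSO to 1.65% and 0.410% in YW-LF, and the YWHAZ segment is 31.8% and 25.7% against 46.7% and 42.6%.

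In CPM per kb of mean transcript length, the order of mean levels in DMSO was YWHAE (629), YWHAZ (568), YWHAB (207), YWHAQ (193), YWHAH (158), SFN (130.4) and YWHAG (97.5). YWHAE and YWHAZ overlapped there, as did YWHAH with SFN and SFN with YWHAG. In YW-LF the order was YWHAZ (916), YWHAE (624), YWHAG (177), YWHAQ (160.5), YWHAH (88.9), YWHAB (87.9) and SFN (18.5). Overlapping neighbours were YWHAZ and YWHAE, YWHAG and YWHAQ, and YWHAH and YWHAB. SFN lay apart from its neighbour, with 26.7 and 10.3 CPM per kb against 63.2 and 113 for YWHAB. YWHAG went from the seventh place to the third. The order depends on the transcript length assigned to each gene.

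Likeness to SFN was measured over the 4 libraries as the Euclidean distance between log2 CPM values centred on each gene's mean, among 10784 genes with a mean of at least 5 CPM. The 5 nearest were ANGPTL2 (distance 0.12), a secreted angiopoietin-like protein, HEG1 (0.17), a membrane protein of cell junctions, ID1 (0.18), an inhibitor of basic helix-loop-helix factors, SLCO4C1 (0.19), an organic anion transporter, and NFIX (0.29), a transcription factor. Their log2 fold changes lay between -2.93 and -2.65. HEG1 was the most abundant by CPM, at 503 and 777 in DMSO and 121 and 46.1 in YW-LF. ID1 had 16.3 and 28.7 CPM under DMSO and 5.27 and 1.88 CPM under YW-LF. Each of the 5, as SFN, was lower in DMSO replicate 1 than in replicate 2 and lower in YW-LF replicate 2 than in replicate 1. The 5 were picked for likeness to SFN in these same 4 libraries, so this order and their fold changes follow from the choice.

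**Figure D4:**
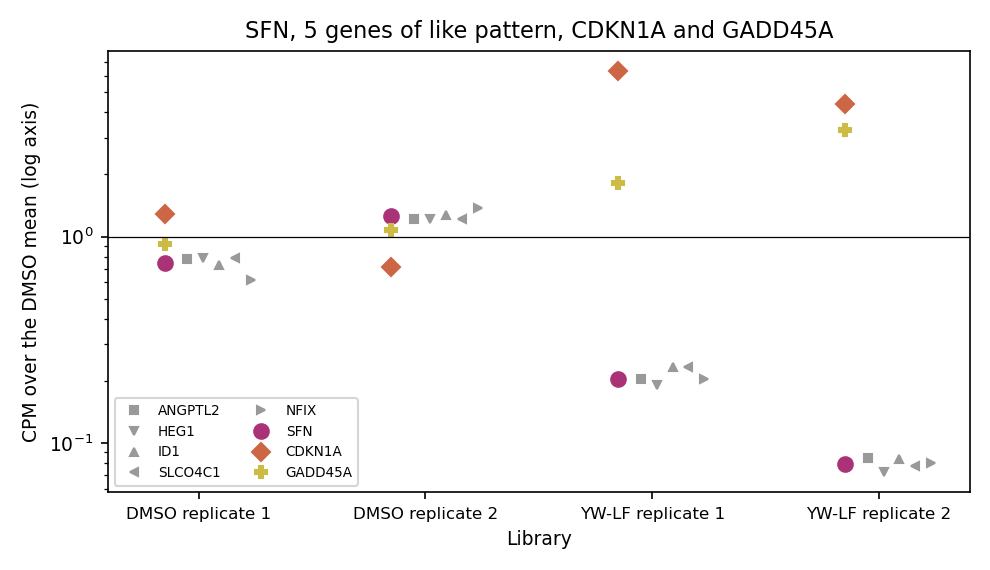
CPM divided by the gene's DMSO mean (log axis) in each library for SFN, the 5 genes nearest to it in pattern, and the p53 targets CDKN1A and GADD45A. SFN and the 5 grey genes lie together in all 4 libraries, as they were picked to, and are low in YW-LF. CDKN1A (167 and 115 CPM under YW-LF) and GADD45A (51.2 and 93.0 CPM) are high there. Of the 11 listed p53 targets tested, 7 stood above DMSO and 4 below in both YW-LF libraries.

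Other genes of the p53 response at G2/M were read from a list of 12, of which 11 were tested (RPRM was too low). For 7 of these genes (63.6%) both YW-LF libraries stood above DMSO and for 4 (36.4%) both stood below, against 28.0% and 27.8% of all genes tested. Their log2 fold changes had a median of 0.87, against 0.06 over all genes tested. GADD45G, which held that median (SE 0.92), had at most 0.421 CPM in any library. BTG2 had at most 1.52 CPM, and both were among the 7 above. With at least 10 counts required in all 4 libraries the median was 0.81. Of the 11 tested, edgeR called 0 and DESeq2 called 3, CDKN1A and CCNG2 as higher and GTSE1 as lower. DESeq2 called 5.95% of all genes higher and 4.41% lower. CDKN1A, which encodes the CDK inhibitor p21, had 33.8 and 18.7 CPM under DMSO and 167 and 115 CPM under YW-LF, a log2 fold change of 2.42 (SE 0.46). GADD45A, a stress gene whose product binds CDK1, had 26.1 and 30.3 CPM under DMSO and 51.2 and 93.0 CPM under YW-LF (1.35, SE 0.42). GTSE1, a microtubule-bound protein of G2 and S phase, had 89.3 and 99.5 CPM under DMSO and 22.9 and 32.8 CPM under YW-LF (-1.76, SE 0.38). SFN thus lay on the other side of DMSO from CDKN1A and GADD45A in every library of YW-LF. The 4 listed genes below DMSO, on the side of SFN, were GTSE1, CCNG1 (-1.36, SE 0.40), PLK2 (-1.16, SE 0.48) and PPM1D (-0.23, SE 0.36). The other 7 tested stood above. Without YW-LF replicate 2 the list's median was 0.39.

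Of 12 regulators of SFN, 1 stood above (8.33%, against 28.0% of all genes), 7 below (58.3%, against 27.8%) and 4 overlapped, with a median log2 fold change of -0.60. DESeq2 called 4 lower, BRCA1, DNMT3B, TP73 and UHRF1, and 0 higher, beside 4.41% and 5.95% of all genes. DNMT3A, the 1 above, had 15.1 and 11.4 CPM under DMSO and 31.5 and 24.3 CPM under YW-LF (1.08, SE 0.40). UHRF1, which brings the maintenance methyltransferase to newly copied DNA, had 193 and 196 CPM under DMSO and 9.17 and 17.7 CPM under YW-LF (-3.86, SE 0.48). DNMT1, that methyltransferase, had 429.9 and 528 CPM under DMSO and 76.2 and 297 CPM under YW-LF, and its log2 fold change of -1.36 (SE 0.67) was not called with all 4 libraries. BRCA1, a repair protein reported to act on SFN transcription, had 63.8 and 71.5 CPM under DMSO and 27.0 and 13.98 CPM under YW-LF (-1.72, SE 0.44). The ubiquitin ligases of the sigma protein, TRIM25 (181 and 216 against 190.2 and 176 CPM) and COP1 (33.2 and 27.5 against 29.6 and 13.7 CPM), overlapped between groups.

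Cell cycle partners of 14-3-3 proteins numbered 16, of which 2 stood above (12.5%, against 28.0% of all genes), 9 below (56.2%, against 27.8%) and 5 overlapped, with a median log2 fold change of -0.53. DESeq2 called 3 lower, CDC25A, KIF23 and PLK1, and 0 higher, beside 4.41% and 5.95% of all genes. The 2 above were CDK4 and CDKN1B. CDK4 had 55.4 and 58.2 CPM under DMSO and 69.5 and 160 CPM under YW-LF (1.02, SE 0.48). CDKN1B had 53.9 and 45.3 against 90.8 and 69.4 CPM (0.69, SE 0.36). CDC25A, a phosphatase that activates CDKs, had 41.1 and 23.0 CPM under DMSO and 8.20 and 12.7 CPM under YW-LF (-1.62, SE 0.47). Its relatives CDC25B (-0.59, SE 0.36) and CDC25C (-0.53, SE 0.39) were not called. PLK1, a mitotic kinase, had 155 and 209.6 CPM under DMSO and 51.9 and 61.5 CPM under YW-LF (-1.68, SE 0.38), and KIF23, a kinesin of cytokinesis, had 100.1 and 101 against 36.2 and 43.0 CPM (-1.34, SE 0.35). WEE1, the kinase that opposes CDC25, overlapped between groups (41.1 and 37.4 against 30.5 and 87.6 CPM), as did CCNB1, the cyclin B1 gene (169 and 145 against 102 and 217 CPM). CDK1 had 98.9 and 87.1 CPM under DMSO and 61.1 and 76.5 CPM under YW-LF (-0.43, SE 0.35).

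The 20 partners in growth and survival signalling split into 7 above (35%, against 28.0% of all genes), 8 below (40%, against 27.8%) and 5 overlapping, with a median log2 fold change of -0.18. That median was -0.70 without YW-LF replicate 1, -0.05 without YW-LF replicate 2 or DMSO replicate 2, -0.28 without DMSO replicate 1, -0.33 with limma-voom, -0.38 with the replicate block and 0.00 by library size alone. DESeq2 called FOXO3 and IRS2 higher and IRS1 lower, beside 5.95% and 4.41% of all genes. FOXO3, a transcription factor that 14-3-3 proteins keep in the cytoplasm, had 64.8 and 78.1 CPM under DMSO and 143 and 216 CPM under YW-LF (1.33, SE 0.40). The insulin receptor substrates stood on opposite sides of DMSO, IRS2 with 56.5 and 78.6 against 191 and 323 CPM (1.93, SE 0.45) and IRS1 with 167 and 157 against 63.4 and 43.2 CPM (-1.60, SE 0.38). BAD, a pro-apoptotic protein that 14-3-3 proteins restrain, had 21.7 and 15.5 CPM under DMSO and 23.5 and 61.4 CPM under YW-LF, and was not called. BRAF, a kinase of the ERK pathway, had a log2 fold change of 0.34 (SE 0.35), smaller than its SE.

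Among 22 partners in transcription, the cytoskeleton and metabolism, 4 stood above (18.2%, against 28.0% of all genes), 10 below (45.5%, against 27.8%) and 8 overlapped, with a median log2 fold change of -0.35 (-0.22 by library size alone). DESeq2 called ARHGEF2, HDAC9 and TXNIP higher and CRTC1 and TBC1D4 lower, beside 5.95% and 4.41% of all genes. TXNIP, a thioredoxin-binding protein that limits glucose uptake, had 159.8 and 196 CPM under DMSO and 746 and 1085 CPM under YW-LF (2.36, SE 0.48). TBC1D4, which controls glucose transporter traffic, had 104 and 86.8 against 30.3 and 23.2 CPM (-1.84, SE 0.37). The Hippo effectors YAP1 (205 and 172 against 134 and 135 CPM) and WWTR1 (156 and 159.8 against 127 and 111 CPM) were lower without being called.

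The kinases that write 14-3-3 binding sites had 32 of 33 members tested (PRKD1 was at 0), with 7 above (21.9%, against 28.0% of all genes), 11 below (34.4%, against 27.8%) and 14 overlapping, shares near those of all genes. Their median log2 fold change was -0.28, and it was -0.54 without YW-LF replicate 1, -0.11 without YW-LF replicate 2, -0.17 without DMSO replicate 2 and -0.15 by library size alone. DESeq2, which called 5.95% of all genes higher and 4.41% lower, called SIK1, a salt-inducible kinase, higher (13.4 and 13.4 against 30.9 and 65.6 CPM, 1.85, SE 0.47) and 0 lower. SGK1, a relative of AKT, had 25.8 and 26.5 CPM under DMSO and 7.32 and 13.9 CPM under YW-LF (-1.31, SE 0.45) and was not called.

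Genes of stratified epithelium, where SFN is most abundant, were mostly scarce in this line. Of 38 listed, 25 were tested, with 7 above (28.0%, the share of all genes), 8 below (32%, against 27.8%) and 10 overlapping. Their median log2 fold change of -0.19 moved to between -0.72 (replicate block) and -0.05 (without YW-LF replicate 2), with -0.53 without YW-LF replicate 1, -0.36 and -0.32 without DMSO replicates 1 and 2, and -0.60 with limma-voom. DESeq2 called CDH3 higher and ITGA6, PKP2 and PPL lower, beside 5.95% and 4.41% of all genes. PKP2, a desmosomal plaque protein, had 124 and 151 CPM under DMSO and 44.9 and 35.6 CPM under YW-LF (-1.77, SE 0.37), and PPL, periplakin, had 21.2 and 27.6 against 7.78 and 3.24 CPM (-2.14, SE 0.54). KRT17 was low throughout (0.267 and 0.269 against 1.53 and 1.07 CPM), and KRT5, a basal keratin, had 0 counts in all 4 libraries. Of the 7 keratinocyte markers, KRT5, KRT1 and IVL were at 0, and the list sums of 25.5 and 36.1 CPM under DMSO and 36.5 and 95.8 CPM under YW-LF came almost wholly from KRT10 (25.2 and 34.8 against 36.02 and 93.7 CPM). The sum in YW-LF replicate 1 lay just above that in DMSO replicate 2. The higher sums under YW-LF thus rest on replicate 2 and on KRT10, which was not called (1.11, SE 0.52). SFN was lower under YW-LF, and a link between these sums and SFN was not tested.

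**Figure D5:**
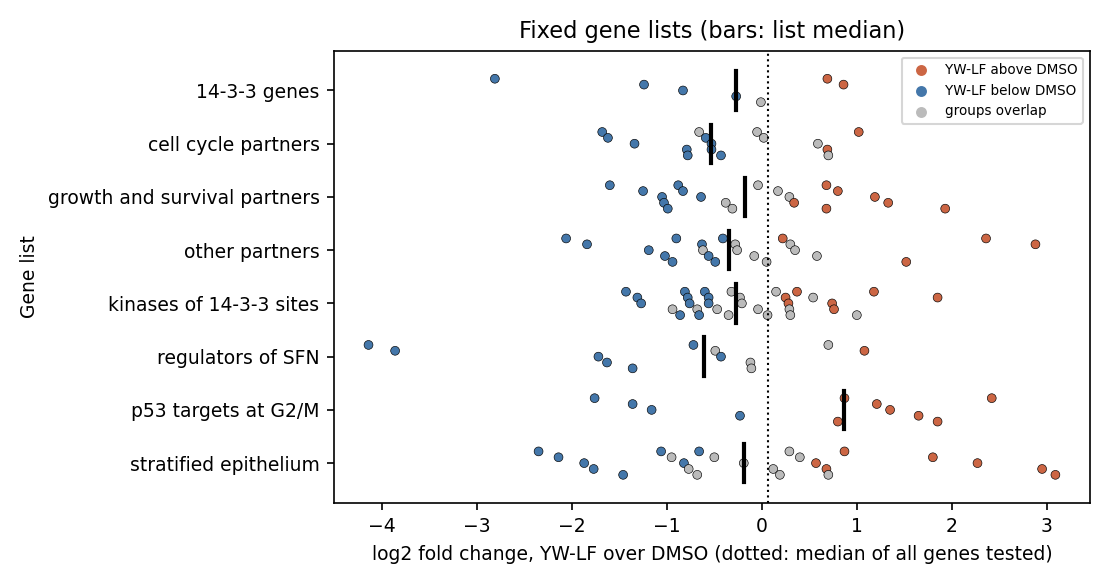
Log2 fold change of YW-LF over DMSO for each tested gene of the family and of the 7 lists, coloured by whether the YW-LF libraries lie above, below or across the DMSO libraries, with a bar at each list's median and a dotted line at the median of all genes tested (0.06). The list medians run from -0.60 for regulators of SFN to 0.87 for p53 targets at G2/M.

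In these 7 lists edgeR called 0 genes and limma-voom called 0. At an unadjusted p under 0.05, which 11.5% of all genes passed as higher and 9.01% as lower, edgeR had 3 lower cell cycle partners, 2 higher and 3 lower growth and survival partners, 3 higher and 4 lower other partners, 2 higher and 1 lower kinases, 1 higher and 4 lower regulators of SFN, 3 higher and 3 lower p53 targets, and 2 higher and 6 lower epithelial genes. Genes called by DESeq2 that the rule for named genes did not pick were named after their values were seen. So were BTG2, CCNG1, CDK4, CDKN1B, DNMT3A, GADD45G, PLK2 and PPM1D.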

How the data were processed

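Whole-number read counts per gene in 4 libraries (2 DMSO, 2 YW-LF) were deposited by the authors without normalization, as the values show. Aligner, counter and annotation: not given in the sources used here. Per the submitters' processing notes the builds were GRCm38 and mm10, both of mouse, but all 20263 row identifiers are human Ensembl genes. Symbols matched 20148 rows, and the other 115 held 0.102% of counts. A second table repeats the DMSO values (40526 of 40526 identical), and 2 columns that match no label were not used.

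Counts were fitted with edgeR 4.0.16 in R 4.3.3: filterByExpr, TMM, a quasi-likelihood F-test with no covariates over the 4 libraries, and adjustment after Benjamini and Hochberg (0.05). The SE is the log2 fold change divided by the square root of F; log2 CPM used a prior count of 2. Alternatives were DESeq2 1.42.0, limma 3.58.1 (voom), 3 scalings, 2 filters, mitochondrially encoded genes removed, the replicate number as a block, and each library left out. Lengths came from GENCODE 29.

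The members and the 7 lists were chosen with earlier results of these data known. Named genes were the members, fixed genes of the lists, the 2 genes per list with the lowest unadjusted p (mean of at least 5 CPM, no overlap), and the 5 genes most like SFN. Of the fixed genes, 1 is not reported here.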

Additional observations from a re-analysis of the deposited data

How the results depend on the processing

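Counts of genes past the threshold depended on the processing. edgeR called 0 genes with all 4 libraries, DESeq2 841 higher and 623 lower, edgeR with a total count of at least 1 called 155 and 120, and leaving out 1 library gave 46 to 2963 higher and 16 to 2919 lower. The cause was not tested. With the replicate number as a block, edgeR called 186 higher and 145 lower, SFN (-2.92) among them. The labels tie these numbers to no batch, and deviations of same-numbered libraries correlated at 0.059 over 12584 genes. That value rests on 2 libraries per group and cannot show whether same-numbered libraries share a batch. The log2 fold change of SFN ran from -3.66 to -2.30 with 1 library left out, and all 13 alternatives kept its direction. YWHAE turned its sign in 2 of 13. The SFN share of family reads was 11.4% in DMSO and 2.03% in YW-LF with the longest transcript, which divides the reads of 5 of the other 6 members by greater lengths.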
